A study of Homo sapiens with 40 samples.

Results

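The genes described here are PAN3 and the mRNA deadenylases, 10 of the 60279 genes in the count tables. They were chosen by name, and the set was picked because PAN3 was far higher in cells processed with the NEB protocol than in those processed with the 2 other protocols, so the PAN3 level in NEB cells is given as a description and supports nothing. The members are PAN3, PAN2, CNOT1, CNOT2, CNOT3, CNOT6, CNOT6L, CNOT7, CNOT8 and PARN.

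Single T47D cells, a human luminal breast cancer cell line, were sorted as EpCAM+/CD49f+ cells into the lysis buffer of each protocol. No treatment of the cells is described. G&T was applied to 13 cells, the SMART-seq HT kit of Takara to 13 cells, and the NEBNext Single Cell/Low Input kit (NEB) to 14 cells. After quality control 11 cells of each protocol were kept. All cells shared the same line and the same passage number, and the groups differed in chemistry. Takara and G&T use a template switching oligo with a locked nucleic acid and final libraries made with Nextera XT. NEB uses an oligo without it, a uracil excision based final library and more PCR cycles. Each protocol was 1 sequencing run, so it counts as 1 sample. The number of sorting plates is not given. Protocol, plate and run cannot be told apart, cells are not replicates of a protocol, and no test was made.

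Messenger RNAs carry a poly(A) tail that is shortened before the body of the message is degraded. In cells of animals the PAN2-PAN3 complex is known for trimming long tails, with PAN2 as the nuclease and PAN3 as the subunit that binds poly(A) binding protein and brings PAN2 to the message. The CCR4-NOT complex does most of the remaining shortening. It is built on the scaffold CNOT1, with CNOT2 and CNOT3 as structural subunits, CNOT6 or CNOT6L as a nuclease of the CCR4 type and CNOT7 or CNOT8 as a nuclease of the CAF1 type. PARN is a separate poly(A)-specific ribonuclease.

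All 3 protocols start cDNA synthesis from an oligo(dT) primer, which pairs with runs of A. Stretches of 30 bases around the longest run of A in the canonical mRNA are therefore shown for PAN3, for its partner PAN2 and for CNOT2, with the run in capitals. They were read from the GRCh38 transcripts of GENCODE release 44 and are written 5′ to 3′ on the strand of the gene. The PAN3 stretch lies in the coding sequence at chr13:28292389-28292418 on the plus strand, and the PAN2 stretch in the coding sequence at chr12:56323095-56323124 on the minus strand. The CNOT2 stretch lies at chr12:70353912-70353941 on the plus strand and spans the end of the annotated coding sequence. Its run comes after that end and was counted as 3′ UTR. A run of A is a description of the letters and not a priming site that was measured.
PAN3: ctggtgtgccagAAAAAAtaagcctgattt
PAN2: atgaagatgaccAAAAAcaaagggctggat
CNOT2: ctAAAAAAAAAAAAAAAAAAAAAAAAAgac
The run was 6 bases in PAN3, 5 in PAN2 and 25 in CNOT2. The median over the 13022 genes compared between NEB and G&T was 6 bases, and 22.1% of the genes with a value had a run of at least 10. The run in PAN3 was thus as long as that median.

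The kept cells had 658154 to 1166633 reads on genes in G&T, 818512 to 1287911 in Takara and 624772 to 963816 in NEB. With at least 1 read counted as detection, the NEB cells held 4416 to 6719 genes, fewer than every G&T cell (9541 to 12794) and every Takara cell (10624 to 11855). ERCC spike-ins, synthetic RNAs added at the same dilution to every lysate, took 5.66% to 18.9% of the library in NEB, 1.37% to 2.75% in G&T and 0.538% to 1.33% in Takara. All 7 luminal epithelial markers had reads in each protocol. Their summed level ran from 1648 to 5101 CPM (the count of a gene scaled to a fixed total of reads on genes) over the NEB cells, from 3877 to 14553 in G&T and from 9897 to 26605 in Takara. Of 4 leukocyte markers 1 or 2 had reads, with a summed level of at most 54.7 CPM in any cell of the 3 protocols. Of 3 endothelial markers 2 had reads in G&T, up to 25.5 CPM, and none in Takara or NEB. Of 4 fibroblast markers 4 had reads in G&T, 2 in Takara, against 1 in NEB, up to 50.04 CPM in an NEB cell. The part of these genes in the values below was not tested.

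PAN3 had few reads in G&T and Takara and many in every NEB cell. The gene (ENSG00000152520) spans 28138506 to 28295335 on the plus strand of chromosome 13 in GRCh38. In G&T its level was 0 CPM in the lowest cells, 2.07 in the median cell and 38.0 in the highest cell, B2. The Takara cells ran from 1.78 CPM over a median of 4.85 to 15.5. The NEB cells ran from 143.5 CPM over a median of 457.6 to 705.5. The lowest NEB cell, E2, thus stood above the highest cell of both other protocols, while the G&T and Takara cells overlapped. PAN3 had reads in 9 of 11 G&T cells (exact 95% binomial interval 48.2% to 97.7%) and in 11 of 11 Takara and NEB cells. At least 5 reads were found in 3 G&T, 6 Takara and 11 NEB cells. Thinned to 624772 reads on genes per cell, the expected number was 8.07 cells in G&T and 10.4 in Takara, and it was still 11 in NEB.

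**Figure D1:**
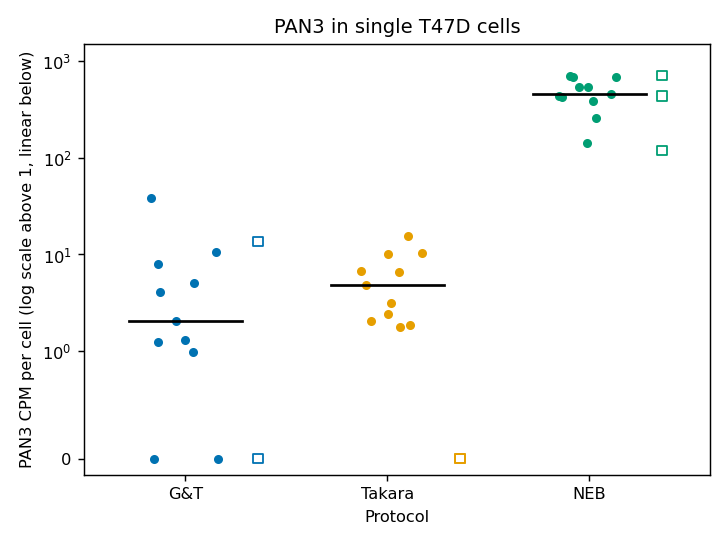
PAN3 level in each cell in CPM, on a log scale above 1 and a linear scale below, for G&T, Takara and NEB. Filled circles are the 11 kept cells of a protocol, open squares are wells left out by quality control, and lines are medians (2.07, 4.85 and 457.6 CPM). All kept NEB cells lie at or above 143.5 CPM, and all kept cells of the other protocols lie at or below 38.0 CPM.

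Summed over the kept cells, PAN3 stood at 5.37 CPM in G&T (51 reads, 95% Poisson interval 4.00 to 7.06), 6.23 CPM in Takara (73 reads, 4.88 to 7.83) and 476 CPM in NEB (3795 reads, 461 to 491). These intervals cover counting error only, since reads without molecular identifiers are not independent molecules. The NEB level was 88.7 times that in G&T (counting interval 67.3 to 119) and 76.4 times that in Takara (60.6 to 97.7). With 1 CPM added, the log2 ratio was 6.23 over G&T, rank 2 of 13022 genes, and 6.04 over Takara, rank 3 of 12438 genes. Both comparisons share the NEB cells. In G&T, cell B2 alone held 49.0% of the PAN3 reads, and without it the level there was 2.94 CPM and the log2 ratio of NEB over G&T was 6.92. Between Takara and G&T, the comparison that did not choose PAN3, the log2 ratio was 0.18 with overlapping cells, and it was -0.066 without Takara cell C1. By rank among all genes with reads, PAN3 was number 9833 in G&T, 9089 in Takara, against 352 in NEB.

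The scale changes the size of the PAN3 difference. Per 1000 ERCC reads, PAN3 had 0.278 reads in G&T, 0.643 in Takara and, for NEB, 3.63. On that scale the NEB level was 13.1 times that in G&T and 5.66 times that in Takara, or 3.55 and 2.44 on the log2 scale. The same change of scale shifted the median of all genes by -2.30 for NEB over G&T, by -3.29 for NEB over Takara and by 0.98 for Takara over G&T. The single cells then overlapped, since NEB ran from 1.21 to 7.63 reads per 1000 ERCC reads, G&T from 0 to 1.76 and Takara from 0.132 to 2.15.

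PAN2, the nuclease that PAN3 serves, did not share this pattern. PAN2 ran from 0 over a median of 15.2 to 71.1 CPM in the G&T cells, from 0 over 15.9 to 64.0 in Takara and from 0 over 0 to 101 in NEB. The 3 ranges overlapped throughout. The pooled levels were 17.5 CPM in G&T (14.9 to 20.3), 19.9 in Takara (17.4 to 22.6) and 19.4 in NEB (16.5 to 22.8). The ratio of NEB over G&T was 1.11 (counting interval 0.888 to 1.39) and that of NEB over Takara was 0.978 (0.793 to 1.20). By ERCC reads these ratios were 0.164 and 0.0724, and the log2 ratio of NEB over G&T went from 0.15 to -0.49 without NEB cell C1. In NEB these reads came from 3 of 11 cells, A1, B1 and C1, against 9 cells in G&T and 10 in Takara. All 3 of these NEB cells had at least 50.1 CPM.

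The scaffold CNOT1 was also found in few NEB cells. CNOT1 ran from 11.2 over a median of 25.1 to 82.5 CPM in G&T, from 0 over 13.4 to 53.5 in Takara and from 0 over 0 to 88.5 in NEB. Its pooled level was 30.9 CPM in G&T, 18.3 in Takara, against 12.9 in NEB, a log2 ratio of NEB over G&T of -1.20 with overlapping cells. That value fell to -2.21 without NEB cell B1, which held 58.3% of the reads there, and rose to -0.97 without G&T cell G1. For NEB over Takara it was -0.47, and -1.48 without NEB cell B1. The CNOT1 reads in NEB came from A1, B1 and C1, the cells that held PAN2. The exons of CNOT1 overlap those of SETD6 on the opposite strand, which had 152 reads in G&T, 125 in Takara but 0 in NEB, and the strand setting of the counts is not stated in the sources used here.

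Of the structural subunits, CNOT2 was present in nearly all cells and CNOT3 had no read in NEB. CNOT2 ran from 52.3 over a median of 63.2 to 120.0 CPM in G&T, from 25.8 over 94.5 to 132.8 in Takara and from 0 over 125.5 to 443.8 in NEB. The pooled levels of 75.1, 88.9 and 131 CPM differed by less than 2-fold, with overlapping cells. By ERCC reads CNOT2 was past 2-fold lower in NEB, with log2 ratios of -1.92 over G&T and -3.15 over Takara. CNOT3 had 46 reads in 8 G&T cells (4.84 CPM), 18 reads in 8 Takara cells (1.54 CPM) and 0 of 7973692 reads in NEB, which allows a pooled level of up to 0.376 CPM at 3 reads. By the counting interval, CNOT3 was at least 10.1-fold lower in NEB than in G&T and at least 2.99-fold lower than in Takara. The average of NEB and Takara fell short of 1 CPM, the level required for the count of genes past 2-fold. Takara over G&T gave a log2 ratio of -1.20 for CNOT3, with overlapping cells.

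The CCR4-type nucleases were patchy in NEB. CNOT6 ran from 17.8 over a median of 46.5 to 131.7 CPM in G&T, from 0 over 22.5 to 63.0 in Takara and from 0 over 21.0 to 214 in NEB, where 7 of 11 cells had reads. Pooled, it stood at 51.2 CPM in G&T, 26.6 in Takara and, for NEB, 56.4. The log2 ratio of NEB over Takara was 1.06 by reads on genes, but -2.58 by ERCC reads, and it fell to between 0.57 and 0.99 when any of NEB cells C2, E1 and E2 or Takara cells A1, B2, D2, E1 and H1 was left out. For Takara over G&T the value was -0.92, and it lay between -1.13 and -1.02 without Takara cell B1 or D1 or G&T cell E2.

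CNOT6L ran from 8.997 over a median of 24.9 to 44.6 CPM in G&T and from 0 over 4.199 to 17.0 in Takara. In NEB 4 of 11 cells had reads, from 57.1 CPM in D1 to 380.4 in H2, and the median cell was at 0. The pooled level was 26.8 CPM in G&T, 4.86 in Takara, against 63.5 in NEB. By reads on genes the log2 ratio was 1.21 for NEB over G&T and 3.46 for NEB over Takara, while by ERCC reads both turned, to -1.46 and -0.047. Cell H2 held 53.0% of the NEB reads. Without it the values were 0.28 and 2.52, and without NEB cell D2 the first was 0.99. CNOT6L was 5.52 times as high in G&T as in Takara (counting interval 4.13 to 7.49), with overlapping cells. Of the 50-base words of its mRNA, 7.30% also occur in the pseudogene CNOT6LP1, so the counting could have left out reads from there.

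Of the CAF1-type nucleases, CNOT7 was high in every NEB cell and CNOT8 in few. CNOT7 ran from 62.2 over a median of 126.4 to 170.0 CPM in G&T, from 40.8 over 162.0 to 261.7 in Takara and from 190.4 over 455.8 to 724.3 in NEB. Every NEB cell stood above every G&T cell, while the lowest NEB cell, E1, lay below the highest Takara cells. Pooled, CNOT7 stood at 118 CPM in G&T, 159.7 in Takara and, for NEB, 471, a ratio of NEB over G&T of 3.99 (counting interval 3.73 to 4.27) and of NEB over Takara of 2.95 (2.79 to 3.12). By ERCC reads both directions turned, with log2 ratios of -0.76 and -2.18. Of its 50-base words, 2.54% are shared with other genes.

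CNOT8 ran from 0 over a median of 21.4 to 76.0 CPM in G&T, from 25.8 over 75.5 to 126.9 in Takara and from 0 over 0 to 203 in NEB, where 4 of 11 cells had reads. Pooled, CNOT8 stood at 26.2 CPM in G&T, 73.6 in Takara, against 34.9 in NEB. It was the only member past 2-fold higher in Takara than in G&T, by 2.81 times (counting interval 2.44 to 3.25), with overlapping cells. The log2 ratio of NEB over G&T was 0.40, but -2.21 by ERCC reads and -0.49 without NEB cell E1. The log2 ratio of NEB over Takara was -1.06. That value rose to between -0.99 and -0.88 when any of NEB cells A2, B1, C1, C2, D1, D2, G2 and H2 or Takara cells C1 and D1 was left out, and it fell to -1.95 without E1, which held 52.2% of the reads there.

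PARN ran from 8.30 over a median of 33.8 to 112.8 CPM in G&T, from 18.4 over 68.1 to 89.3 in Takara and from 0 over 0 to 67.8 in NEB. Reads in NEB came from 3 cells, B1, D1 and D2. Pooled, it stood at 45.4 CPM in G&T, 59.0 in Takara and, for NEB, 16.6, so that PARN was 2.74 times as high in G&T (counting interval 2.25 to 3.36) and 3.56 times as high in Takara (2.95 to 4.32) as in NEB. Leaving out NEB cell D1 took the log2 ratios from -1.40 to -1.99 and from -1.77 to -2.36.

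**Figure D2:**
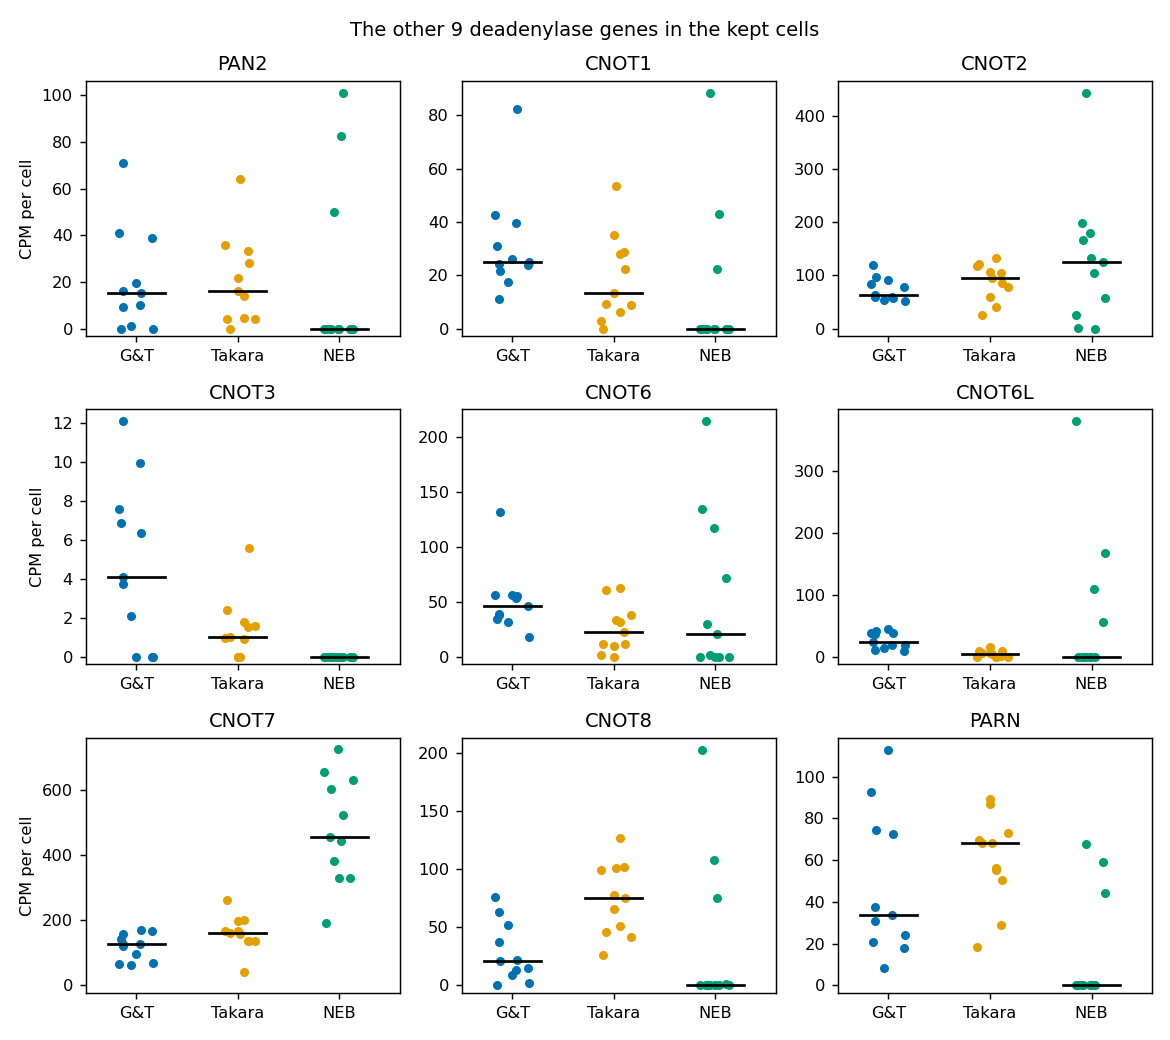
CPM per kept cell for the 9 members other than PAN3, 1 panel a gene with its own linear axis from 0. Points are the 11 cells of G&T, Takara and NEB, and lines are medians. In NEB the median cell is at 0 for PAN2, CNOT1, CNOT3, CNOT6L, CNOT8 and PARN, while CNOT7 lies between 190.4 and 724.3 CPM.

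Counted over the set, 3 of 10 members were at least 2-fold higher in NEB than in G&T (PAN3, CNOT6L and CNOT7), beside 20.9% of all 13022 genes. Another 3 (CNOT1, CNOT3 and PARN) were at least 2-fold higher in G&T than in NEB, beside 44.5%. By ERCC reads, over the same genes, these counts were 1 and 8 members, and 218 and 11094 genes in place of 2722 and 5794. For PAN3 and CNOT7 every NEB cell lay above every G&T cell, beside 1.17% of all genes, and no member was the other way, beside 3.76%. Against Takara, 4 of 9 members compared were at least 2-fold higher in NEB (PAN3, CNOT6, CNOT6L and CNOT7), beside 24.8% of 12438 genes, and CNOT8 and PARN were higher in Takara, beside 42.2%. By ERCC reads, over the same genes, the counts were 1 and 7 members, and 204 and 11198 genes in place of 3079 and 5252. PAN3 alone had every NEB cell above every Takara cell, beside 1.75%, and no member was the other way, beside 9.14%. Since NEB levels chose PAN3, nothing is read from these counts.

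Between Takara and G&T, 1 of 10 members (CNOT8) was at least 2-fold higher in Takara, beside 17.7% of 13164 genes, and 2 (CNOT3 and CNOT6L) were higher in G&T, beside 22.3%. By ERCC reads, over the same genes, 6 members were higher in Takara and 1 in G&T, and 6124 and 1248 genes in place of 2327 and 2929. No member had cells apart in either direction, beside 1.41% of genes with every Takara cell above every G&T cell and 0.744% the other way. The median log2 ratio of the members was 0.18 for Takara over G&T beside -0.055 for all genes compared, 0.27 beside -0.64 for NEB over G&T and 0.56 beside -0.47 for NEB over Takara.

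**Figure D3:**
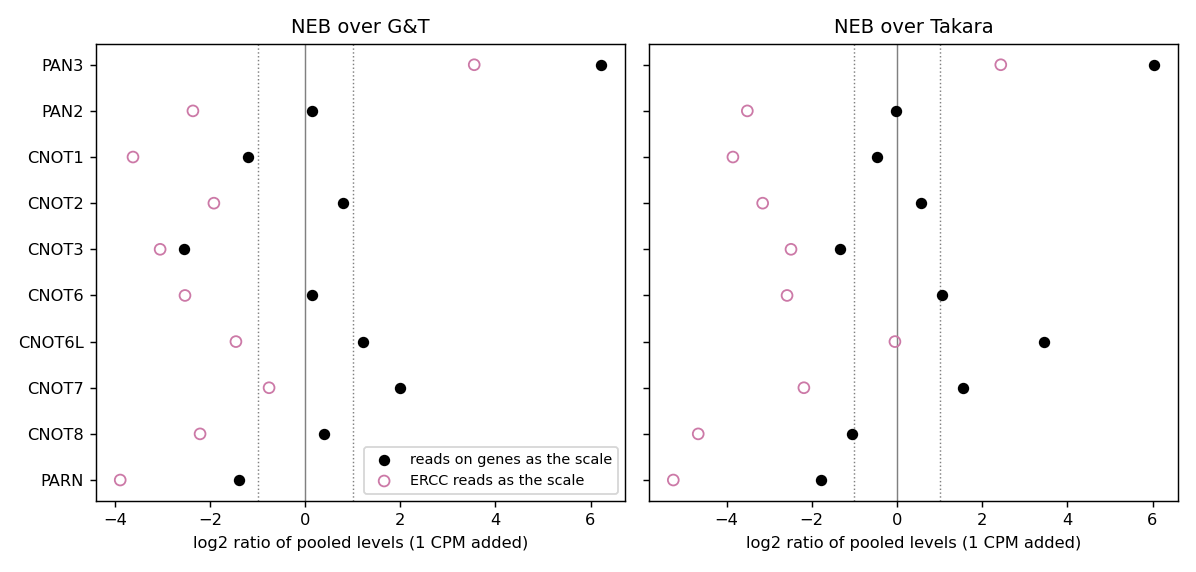
log2 ratio of pooled levels with 1 CPM added for the 10 members, NEB over G&T on the left and NEB over Takara on the right. Filled points use reads on genes as the scale and open points ERCC reads, with dotted lines at 2-fold. PAN3 is at 6.23 and 6.04 by reads on genes and at 3.55 and 2.44 by ERCC reads, and the other 9 members lie below 0 by ERCC reads in both panels.

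The NEB cells held fewer of the members, as they did of genes at large. The median NEB cell had reads on 5161 genes, while the median was 11253 for G&T cells and 10983 for Takara cells. Whether the members differed from all genes in this was not tested. Of the 10 members, 9.27 ± 1.19 were detected per G&T cell (SD, n = 11 cells of 1 run), 9.09 ± 0.54 per Takara cell and 5.09 ± 1.58 per NEB cell. G&T cells held 7 to 10, Takara cells 8 to 10 and NEB cells 3 to 8, so the NEB cells overlapped both. PAN3 and CNOT7 were the members with reads in all 11 NEB cells. PAN3 took 1.34% of the reads on the 10 members in G&T (exact 95% binomial interval 0.997% to 1.75%), 1.36% in Takara (1.07% to 1.71%) and 37.1% in NEB (36.2% to 38.1%). Over single NEB cells this share ran from 11.3% to 53.7%. Without PAN3, the other 9 members summed to 396 CPM in G&T, 452 in Takara, against 806 in NEB, but to 20.5, 46.7 and 6.15 reads per 1000 ERCC reads. CNOT7 alone gave 471 of the 806 CPM, and without it and PAN3 the 8 remaining members summed to 278 CPM in G&T and 293 in Takara, against 335 in NEB.

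Levels were set against each other per kilobase of exon, all annotated exons of a gene merged. In G&T the order ran from CNOT7 (10.8 CPM per kilobase) over CNOT6 (7.78) and CNOT8 (6.67) to PAN3 (0.845) and CNOT3 (0.710) as the lowest. In Takara CNOT8 (18.7) and CNOT7 (14.6) led, and PAN3 (0.981) was number 8 of 10. In NEB PAN3 led with 74.9 CPM per kilobase, before CNOT7 with 43.1 and CNOT2 with 9.38. In each protocol the cell ranges of all neighbours in the order overlapped, PAN3 and CNOT7 in NEB included (22.6 to 111 and 17.4 to 66.2 CPM per kilobase). Counting intervals also overlapped for CNOT6 and CNOT8 and for PAN3 and CNOT3 in G&T, and for CNOT2 and CNOT8 in NEB, among others. With the length of the longest transcript in place of merged exons, PAN3 in NEB stood at 85.1 CPM per kilobase and CNOT7 at 68.4. By that length CNOT7, CNOT2 and PARN led in G&T, and PAN3 (0.960) stood below CNOT3 (1.07) as the lowest.

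Base composition moved with the ratios to NEB. Over the 12889 genes with a value, 99.0% of those compared, Spearman's rho of GC content with the log2 ratio of NEB over G&T was -0.570. It was -0.594 for NEB over Takara and 0.112 for Takara over G&T. These are correlations across genes of the same pooled libraries, and genes are not independent replicates. Genes at least 2-fold higher in NEB than in G&T had a median GC content of 41.5%, those 2-fold higher in G&T had 54.7%, and all genes had 47.6%. PAN3 has 41.8% GC. CNOT2 and CNOT8, both at 41.7%, had log2 ratios of NEB over G&T of 0.80 and 0.40 beside the 6.23 of PAN3, and of -1.92 and -2.21 beside 3.55 by ERCC reads. CNOT7 and CNOT6L are the members lowest in GC, with 35.57% and 36.02%, and CNOT3 is the highest with 61.5%. CNOT7 and CNOT2 hold the longest runs of A, with 26 and 25 bases, and no other member has a run above 9 in its canonical mRNA. The part of GC content or runs of A in any of these ratios was not tested.

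**Figure D4:**
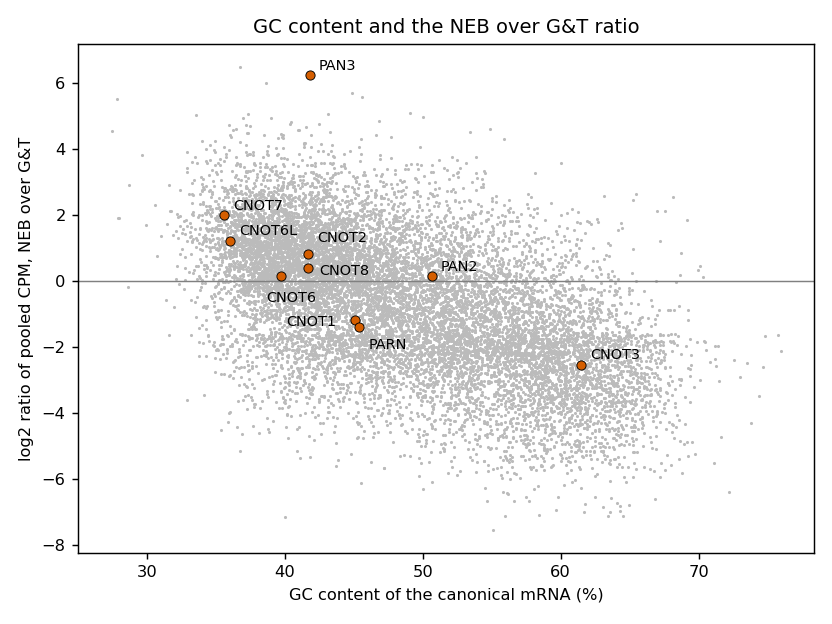
GC content of the canonical mRNA in percent against the log2 ratio of pooled CPM of NEB over G&T, 1 point a gene, with the 10 members marked. Ratios fall with GC content over all genes (rho -0.570), and PAN3, at 41.8% GC and 6.23, lies above CNOT2 and CNOT8, which are close to it in GC content.

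Reads on PAN3 were not matched by reads on its surroundings. The processed pseudogene EEF1A1P3 and the small nuclear RNA pseudogene RNU6-82P, both inside PAN3, had 0 reads in all 3 protocols. Of the neighbouring protein-coding genes, both receptor tyrosine kinases on the other strand, FLT3 had 0 reads and FLT1 had 6 reads, all in G&T. PAN3-AS1, an antisense RNA next to the gene start, had 14 reads in Takara and none in G&T or NEB. No exon of another annotated gene overlaps a PAN3 exon. Of 5541 words of 50 bases in its canonical mRNA, 0 occur in the canonical transcript of another gene, and other transcripts were not searched. Where along the gene the reads fell is not held by counts per gene.

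Other genes of tail metabolism were counted beside the shares of all genes, 20.9% higher and 44.5% lower in NEB than in G&T, and 24.8% higher and 42.2% lower than in Takara. Of 4 further CCR4-NOT subunits, CNOT9 and CNOT4 were past 2-fold higher in NEB than in G&T, with log2 ratios of 2.34 and 2.07, and none was lower. Against Takara the same genes were higher and the 2 others, CNOT10 (-1.33) and CNOT11 (-1.42), were lower. CNOT9, the subunit that binds recruiting proteins, had 87.3 CPM in G&T, 49.2 in Takara, against 445 in NEB, and its NEB cells lay above all others. By ERCC reads CNOT9 and CNOT4 both turned, to -0.41 and -0.61. Of 16 recruiters of deadenylases compared, 5 were higher and 6 lower in NEB than in G&T, and 6 and 6 against Takara. TOB1, which links CAF1-type nucleases to poly(A) binding protein, stood at 375 CPM in G&T, 175.8 in Takara and, for NEB, 4446. Its log2 ratio over G&T was 3.56, and 0.80 by ERCC reads. ZFP36L2 and ZFP36L1, which bring CCR4-NOT to AU-rich messages, were higher by 3.34 over G&T and 4.54 over Takara on the log2 scale, respectively, and by 0.60 and 0.81 on the scale of ERCC reads. Genes of the same families went the other way. The log2 ratios over G&T and Takara were -1.12 and -0.84 for TOB2, and -0.91 and -3.03 for ZFP36.

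Of 10 poly(A) binding proteins and partners compared, 3 were higher and 1 lower in NEB than in G&T, and 5 and 0 against Takara. The largest values were 2.16 for PAIP2 and 1.31 for PAIP2B, inhibitors of poly(A) binding protein, and over Takara 2.30 for LARP4B and 2.21 for PAIP2B, and all 4 values turned by ERCC reads. Of 5 other tail nucleases none was higher and 2 were lower in NEB than in G&T, and 0 and 3 against Takara, with the share lower near that of all genes against G&T. ANGEL1 had 25.9 CPM in G&T, 34.8 in Takara, against 0.125 (1 read) in NEB. PDE12, a mitochondrial nuclease, had 0 reads in NEB, at least 46.2-fold below G&T by the counting interval. Of 10 tail polymerases 2 were higher and 5 lower in NEB than in G&T, near the shares of all genes, and 3 and 3 against Takara. TUT1 and TENT4A had 0 reads in NEB and were at least 18.7-fold and 17.3-fold lower than in G&T by the counting interval. TENT5B was 55.9 times as high in Takara as in NEB. TENT4B stood at 17.1 CPM in G&T, 4.95 in Takara and, for NEB, 126.9. By ERCC reads its log2 ratio of NEB over G&T was 0.13 in place of 2.82, and without NEB cell H2 its level there was 83.5 CPM.

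Of 18 genes of decapping and 5′ to 3′ decay, 4 were higher and 8 lower in NEB than in G&T, near the shares of all genes, and 3 and 8 against Takara. DDX6, a helicase that CNOT1 binds, had 176 CPM in G&T and 23.8 in Takara but 0.251 (2 reads) in NEB, with all NEB cells below all G&T cells. EDC3 and EDC4, scaffolds of the decapping complex, had 0 reads in NEB. They were at least 58.1-fold and 31.9-fold lower than in G&T by the counting interval. The median log2 ratio of NEB over G&T was 0.82 for the further CCR4-NOT subunits, -0.69 for recruiters, 0.024 for poly(A) binding proteins and partners, -0.66 for other tail nucleases, -0.76 for polymerases and -0.34 for decapping and decay, beside -0.64 for all genes.

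**Figure D5:**
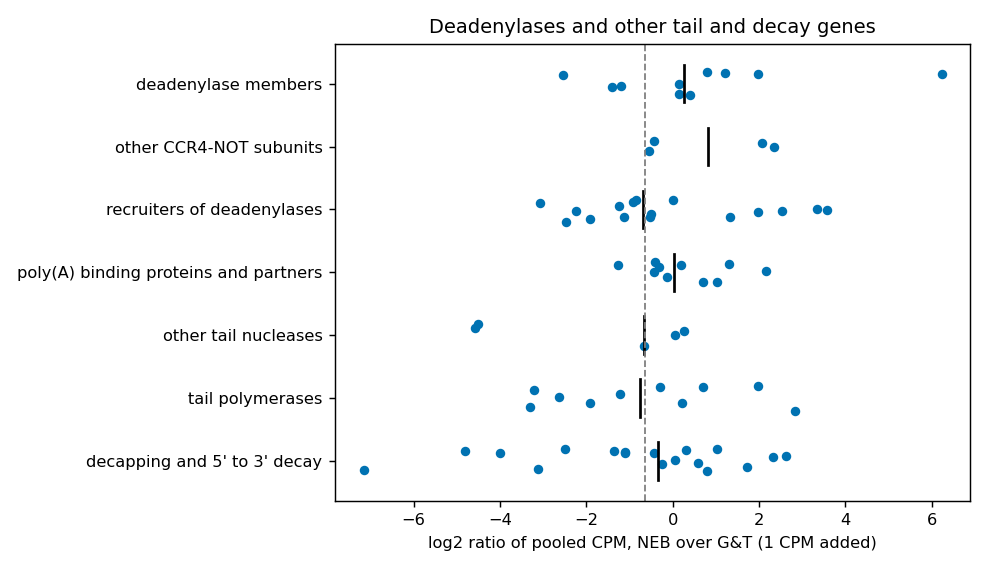
log2 ratio of pooled CPM of NEB over G&T, with 1 CPM added, for each compared gene of the deadenylases and of 6 lists of tail and decay genes. Points are genes, short bars are list medians, and the dashed line is the median of all 13022 genes (-0.64). PAN3, at 6.23, lies to the right of every other gene shown, and DDX6, at -7.15, to the left.

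The genes whose levels followed PAN3 most closely over the 33 kept cells, by Pearson's r of log2(CPM + 1), were TSPYL1 (0.946), NUDT19 (0.942), REEP3 (0.935), C6orf62 (0.930) and TBL1XR1 (0.929) among 13064 genes. These points share their protocol, and all 5 genes had reads in every kept cell and were far higher in NEB, for example TSPYL1 with 64.3 CPM in G&T, 60.4 in Takara, against 938 in NEB. Since NEB levels chose PAN3, r over all cells is a description and supports nothing. Among the members CNOT7 came closest, with r = 0.795, and the others lay between -0.654 and -0.063. With the mean of each protocol subtracted, CNOT7 had r = 0.073 and PAN2, the largest among the members, 0.328. The highest values were then those of CRTC2 (0.696), DYRK1B (0.692), ENSG00000263731 (0.681), HHAT (0.655) and MLLT1 (0.643). Of these, 4 had no read in NEB and all had pooled levels of at most 13.0 CPM, so these values rest on sparse counts.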

How the data were processed

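Single-cell cDNA of T47D cells was sequenced in 3 runs, 1 for each protocol. SMART-Seq3 cells were not analysed here. The deposited values are raw read counts per gene and cell: the authors trimmed reads with Trim Galore in 2 rounds, aligned them to GRCh38 with STAR and assembled the STAR gene counts of a plate in 1 table, without normalization. The annotation release and strand setting are not given in the sources used here. The tables list 60279 genes. Their 92 ERCC rows and 4 rows of unassigned reads were left out of totals and ratios.

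Following the study, wells under 1000 genes, under 600000 reads on genes and spike-ins, above 30% mitochondrial reads or above 25% ERCC reads were left out, 7 of 40. No doublet caller was run, since cells were sorted singly. Reads were summed over the kept cells of a protocol and given as CPM of reads on genes, with 95% exact Poisson intervals, and ratios with conditional exact intervals. Log2 ratios had 1 CPM added. Genes with an average pooled level of at least 1 CPM in the pair were compared, and called at 2-fold. A count of 0 was given a floor of 3 reads. Poly(A) runs, GC content, exons and overlaps came from GENCODE release 44, which held 56104 of the genes.

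The members and lists were chosen with earlier results of these data known. Named genes are all members, genes in and next to PAN3, the 5 closest to PAN3 by correlation with and without the protocol means, and the 2 genes of each list with the largest absolute ratio of NEB over G&T and over Takara. PAN3-AS1, SETD6 and CNOT6LP1 were added after their values were seen, as were CNOT10, CNOT11, TOB2 and ZFP36. Alternatives covered scaling by ERCC reads, by TMM factors or without mitochondrial genes, the mean or median of cells, the pseudocount, filter, fold and detection limit, gene length, the left-out wells and each cell left out. Pooled ratios were tested on simulated counts drawn from a pooled profile, and thinning was tested against random draws. The simulated cells differed by counting error only, so the patchy reads of NEB cells were not covered. TMM factors came from edgeR 4.0.16 in R 4.3.3. Tables were handled in pandas 2.3.3 and numpy 2.4.6, intervals computed in scipy 1.17.1 and plots drawn in matplotlib 3.10.9, all under Python 3.11.15.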

Additional observations from a re-analysis of the deposited data

Results flagged for a closer look

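Quality control left out 7 wells, and the comparisons above do not use them. Members with more reads there than the 3 reads that a count of 0 allows were looked at again. PAN3 had 54 reads in NEB well B2 (119.8 CPM) and 239 in NEB F2 (434.6 CPM), beside 143.5 to 705.5 CPM in the kept NEB cells, and 8 in G&T F1 (13.7 CPM), inside the range of the kept G&T cells. It had 0 reads in G&T C2 and in both Takara wells, and 1 read in NEB F1, a well with 1421 reads on genes.

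CNOT7 had 129 reads in NEB B2, 204 in NEB F2, 47 in G&T F1 and 5 in G&T C2. CNOT2 had 155 reads in NEB F2, 49 in G&T F1 and 158 in G&T C2, where its 224 CPM exceeded all kept G&T cells. PAN2 had 31 reads in G&T F1 and 31 in NEB F2, and CNOT1 had 25 and 5 there. CNOT3 had 6 reads in G&T C2.

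CNOT6 had 12 reads in G&T C2, 14 in G&T F1 and 23 in NEB F2. CNOT6L had 46 reads in G&T C2, 19 in G&T F1, 18 in NEB F2 and 8 in Takara C2. CNOT8 had 32 reads in G&T F1, 7 in Takara C2 and 6 in NEB B2. The counts in Takara C2 came from a well with only 15325 reads on genes. PARN had 11 reads in G&T C2 and 43 in G&T F1. No explanation of these values was tested.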

How the results depend on the processing

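The PAN3 log2 ratio of NEB over G&T kept its direction under every alternative run. Since NEB levels chose PAN3, that is a description and supports nothing. It was 3.55 by ERCC reads, 7.22 from the median of the cells and 6.07 to 6.92 with each cell left out. NEB over Takara was 2.44 by ERCC reads and 5.95 to 6.29 with each cell left out. Takara over G&T was 1.12 by ERCC reads, 0.93 from the median of the cells and -0.066 to 0.88 with each cell left out, with the change of sign without Takara cell C1. The PAN3 level per kilobase in NEB was 85.1 CPM by the longest transcript.

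Of the ratios past 2-fold, the direction turned by ERCC reads for CNOT6L (-1.46) and CNOT7 (-0.76) in NEB over G&T, and for CNOT6 (-2.58), CNOT6L (-0.047) and CNOT7 (-2.18) in NEB over Takara. From the median of the cells it turned for CNOT6L (-4.69 over G&T, -2.38 over Takara) and CNOT6 (-0.096 over Takara). Of the ratios short of 2-fold, those of NEB over G&T also turned by ERCC reads for PAN2 (-2.36), CNOT2 (-1.92), CNOT6 (-2.53) and CNOT8 (-2.21), and from the median of the cells for PAN2 (-4.02), CNOT6 (-1.11) and CNOT8 (-4.49). That of NEB over Takara turned by ERCC reads for CNOT2 (-3.15), and those of Takara over G&T for CNOT1 (0.23) and CNOT6 (0.052). PAN2 in NEB over Takara, at -0.031, turned to between 0.0071 and 0.067 by TMM factors, the mean of the cells and all deposited wells, and PAN3 in Takara over G&T to -0.11 by the mean of the cells. ERCC reads as the scale shift the ratios of all genes by construction. The median of the cells is 0 where most cells have no read, as in NEB for PAN2, CNOT6L and CNOT8. Beyond that the cause was not tested.

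By ERCC reads, with the filter of 1 CPM also on that scale, 156 genes passed 2-fold higher in NEB and 11903 in G&T of 13387 compared, with 1 and 8 of 10 members. Against Takara, 122 genes passed higher in NEB and 12594 in Takara of 13440, with 1 and 8 of 10 members, CNOT3 included. Between Takara and G&T, 6766 passed higher in Takara and 1732 in G&T of 15028, with 6 and 1 members. Over the genes compared by reads on genes, an alternative chosen after seeing the data, the counts were 218 and 11094 with 1 and 8 members, 204 and 11198 with 1 and 7, and 6124 and 1248 with 6 and 1. No member (0) then had every NEB cell above every G&T or every Takara cell, while 1 member had every G&T cell and 2 had every Takara cell above every NEB cell. The share of all genes with cells apart was not computed by ERCC reads, so nothing is read from these counts.

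At 4-fold, 1030 genes were higher in NEB and 3665 in G&T, with 1 and 1 members, 1312 in NEB and 3457 in Takara, with 2 and 0 members, and 343 in Takara and 657 in G&T, with 0 and 1 members. Takara cells held 7.64 members on average at 5 reads or more, and 8.08 with all deposited wells.

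No paired analysis was possible because the wells of different protocols share only a name and no test was made. Single cells in G&T and Takara had few reads on PAN3 and CNOT3, so their counting intervals are wide. PAN3 and the members were compared over 1 run a protocol, so spread between runs is unknown.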
